A study of Mus musculus with 36 samples.

Results

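The genes described here are 47 members of the machinery with which a secretory cell moves new proteins into the endoplasmic reticulum (ER), folds them and sends them on. They were chosen as a fixed list of mouse gene symbols, and the reads of each were summed over its transcripts. All 47 were found among the 54203 genes of the deposited tables, and all 47 passed the filter on low counts in both cohorts. The lowest read sum of any member in any library was 963 reads, for Sec61g. Sorted into roles for this description, the list holds 2 stress sensors, 11 chaperones and cochaperones, 5 enzymes of disulfide bond exchange, 9 genes of ER-associated degradation, 11 of translocation into the ER, 4 of N-glycosylation and 5 of traffic between the ER and the Golgi.

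RNA came from plasma cells of mouse bone marrow, strain C57/BL6, sorted as reporter positive cells with the surface proteins CD138 and TACI, 2000 cells for each of 36 libraries. Cohort D held 4 libraries each of Control(D), Ccnd1 and Ikk2ca(D) and 6 of Ccnd1-Ikk2ca, which carries both transgenes. Cohort M held 4 each of Control(M), MMSET and Ikk2ca(M) and 6 of MMSET-Ikk2ca. Ccnd1 encodes cyclin D1, MMSET is the histone methyltransferase encoded in the mouse by Nsd2, and Ikk2ca names a form of IKK2, the kinase that activates NF-kB and is encoded by Ikbkb. The study models genetic subgroups of the plasma cell cancer multiple myeloma, and its comparisons ask how expression differed with each transgene, alone and combined. The age of the mice, the promoter or Cre that drives each transgene and the reporter allele of the controls are not given in the sources used here. No label ties a library to an animal of its own, and a p-value here measures only the spread between these samples, which may be technical.

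Plasma cells secrete antibody at a high rate, and their ER is correspondingly large. Proteins enter it through the Sec61 channel, where the signal peptide is removed and sugar chains are added, and are folded by Hsp70 and Hsp90 family chaperones, lectin chaperones and disulfide isomerases. Proteins that fail to fold are passed back to the cytosol and degraded (ERAD), and folded ones leave in COPII vesicles. When unfolded protein accumulates, the sensors IRE1 (Ern1), ATF6 and PERK start the unfolded protein response, in which XBP1 and ATF6 raise the transcription of many of these genes. In plasma cells XBP1 is needed for the secretory program.

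Libraries held 54.0 to 97.5 M estimated reads, of which 43.9% to 73.0% fell on immunoglobulin genes, leaving 16.2 to 34.9 M for all others. The transgenes matched the labels in CPM (read counts relative to library size), scaled for transgenes and cell markers over all 36 libraries. CPM of members, given further on, were scaled within the cohort. Ccnd1 lay between 257.8 and 982.5 CPM in the 2 groups that carry it and at most 3.55 elsewhere. Nsd2 lay between 174.3 and 823.6 against at most 9.96. Ikbkb lay between 42.1 and 83.4 CPM in the 4 Ikk2ca groups and between 10.7 and 39.0 in the other 4, where transgene and endogenous transcripts cannot be separated. All 8 plasma cell markers were present in each group, but their summed level differed, from a median of 78540 CPM for Control(D) and 92530 for Ccnd1 down to 33470 for Ikk2ca(D) and 11860 for the libraries with both transgenes. In cohort M the median was 36210 CPM for Control(M), then 13020 for MMSET and 11410 for Ikk2ca(M), with 5546 for both together. Such a sum weighs the most abundant markers most, so it does not show that each marker differed. The summed level of 8 neutrophil markers ranged up to 1392 CPM in Ccnd1 and 2476 in MMSET, and only up to 11.6 in MMSET-Ikk2ca. Sums in any library reached at most 377.7 CPM for 7 B cell markers and 19.4 for 6 T cell markers, and the T cell markers Cd8a and Cd3d, the B cell marker Cr2 and the macrophage marker Mertk were each at 0 throughout at least 1 group.

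To compare genes with each other, TPM (transcript abundance corrected for length) was rescaled to the genes outside the immunoglobulin loci. Over the 8 control libraries the highest member was Herpud1, which encodes an ERAD scaffold at the ER membrane, at 3209 ± 1008 (mean ± SD, n = 8). It was followed by the ER Hsp90 chaperone Hsp90b1 at 2927 ± 440.7 and the mannosidase Edem1, which marks glycoproteins for degradation, at 2868 ± 586.8. Next came Ssr4 of the translocon-associated complex at 2551 ± 286.3, the signal peptidase subunit Sec11c at 2444 ± 176, the disulfide isomerase Pdia4 at 1934 ± 343.5 and the Hsp70 chaperone Hspa5 (BiP) at 1827 ± 331.2. The ranges of neighbours in this order overlapped between libraries, and the order differed between cohorts: Herpud1 had a mean of 3949 in Control(D) and 2469 in Control(M), where Edem1 (3033), Hsp90b1 (2870), Ssr4 (2763) and Sec11c (2536) stood above it. Both sensors stood lowest, Ern1 at 38.5 ± 7.37 and Atf6 at 34.7 ± 6.48. Outside the immunoglobulin loci 30 genes, Herpud1 included, stood at or above Herpud1, and 3249 stood at or above Atf6.

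**Figure D1:**
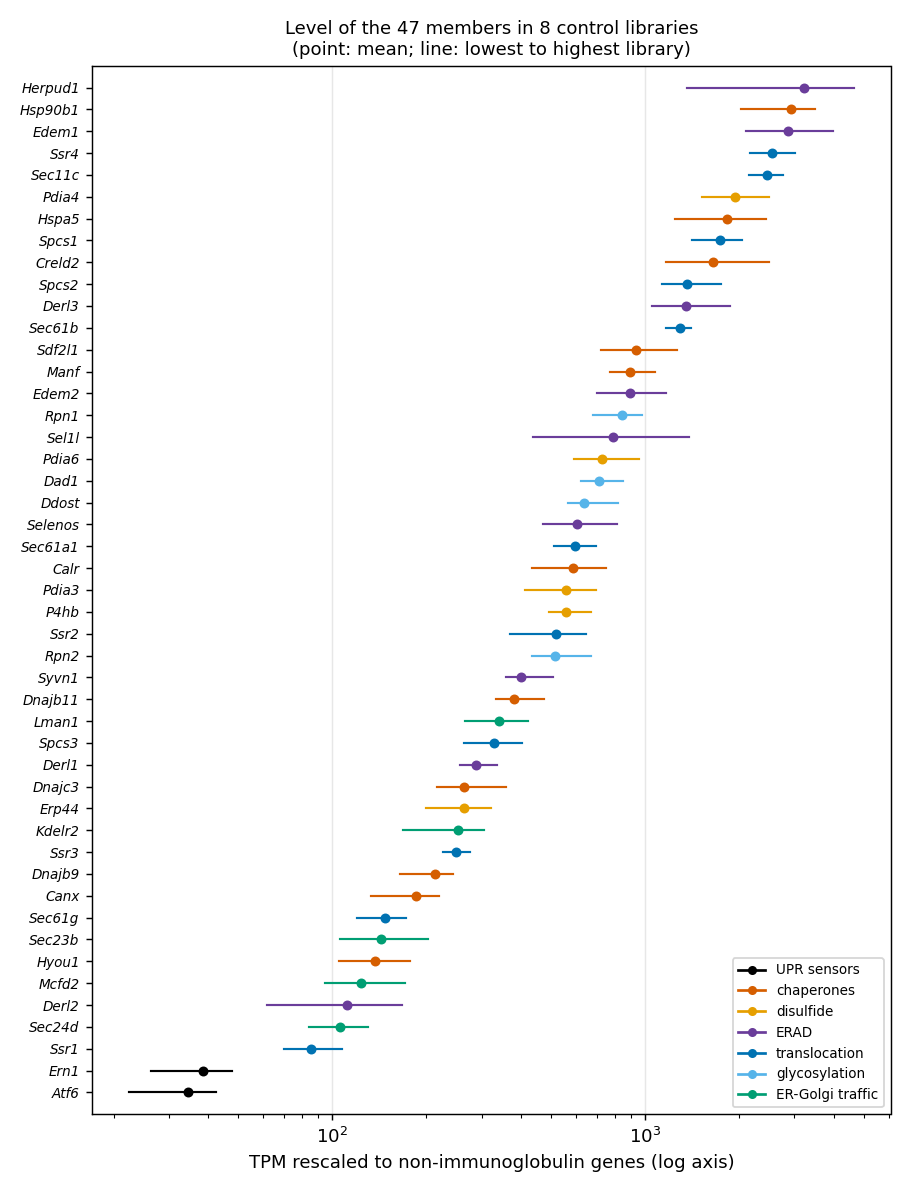
Level of each of the 47 members in the 8 control libraries, in TPM rescaled to non-immunoglobulin genes (log axis); points are means, lines run from the lowest to the highest library and colours give the role. Over both cohorts Herpud1, Hsp90b1 and Edem1 have the highest means, with Herpud1 first in Control(D) but not in Control(M), and the sensors Ern1 and Atf6 stand apart at the bottom.

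Many of these genes are known targets of ATF6 and XBP1, which act at short promoter elements, so their promoters were searched. RefSeq windows of 300 bases on GRCm38.p6, from 250 before to 50 after the start site, were at hand for 37 of the 47 members. The ER stress response element ERSE was searched as CCAAT and CCACG with any 9 bases between them, ERSE-II as ATTGG and CCACG with any 1 base between them, and the core of the unfolded protein response element as TGACGTG, all on both strands. ERSE and ERSE-II share the letters CCACG, and no 2 matches overlapped in a member's window. ERSE was found in 9 members, 24.32% of those with a window, against 0.137% of the 27025 genes with one. Dnajb11 and Herpud1 held ERSE-II (5.41% against 0.044% of all genes), and Hspa5 and Sec24d held TGACGTG (5.41% against 2.224%). A match is a description of the letters and not a site of binding. The 250 bases before the RefSeq start site are shown for the chaperones Calr and Creld2 and the ERAD genes Derl3 and Syvn1. All 4 hold the element and changed in a comparison described further on. Hsp90b1 also holds it and changed in such a comparison, but is shown by its matches alone. Capitals mark the match in the 4 sequences. Calr lies on the minus strand at chr8:84846932-84847181, Creld2 on the plus strand at chr15:88819396-88819645, Derl3 on the plus strand at chr10:75893148-75893397 and Syvn1 on the plus strand at chr19:6046326-6046575.
Calr: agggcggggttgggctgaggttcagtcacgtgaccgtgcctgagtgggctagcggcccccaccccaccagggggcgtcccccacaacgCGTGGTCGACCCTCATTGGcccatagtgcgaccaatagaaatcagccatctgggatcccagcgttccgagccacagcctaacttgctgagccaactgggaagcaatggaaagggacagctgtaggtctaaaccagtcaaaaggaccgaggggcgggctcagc
Creld2: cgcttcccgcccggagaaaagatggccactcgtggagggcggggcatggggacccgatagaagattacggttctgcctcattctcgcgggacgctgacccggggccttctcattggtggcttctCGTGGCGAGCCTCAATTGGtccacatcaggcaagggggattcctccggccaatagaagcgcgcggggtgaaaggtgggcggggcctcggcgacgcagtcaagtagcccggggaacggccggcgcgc
Derl3: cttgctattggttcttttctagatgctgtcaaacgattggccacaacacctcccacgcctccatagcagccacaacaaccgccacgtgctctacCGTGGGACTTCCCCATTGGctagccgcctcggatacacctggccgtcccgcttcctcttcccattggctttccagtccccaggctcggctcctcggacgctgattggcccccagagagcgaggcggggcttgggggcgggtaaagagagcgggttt
Syvn1: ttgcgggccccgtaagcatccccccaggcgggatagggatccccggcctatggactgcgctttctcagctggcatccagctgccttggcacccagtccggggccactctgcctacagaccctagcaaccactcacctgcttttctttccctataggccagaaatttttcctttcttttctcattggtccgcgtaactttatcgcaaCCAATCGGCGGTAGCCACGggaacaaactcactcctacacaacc
In Calr, Creld2 and Derl3 the element reads from the opposite strand, as CGTGG followed by ATTGG, and in Syvn1 it reads along the gene. The other 5 members are shown by the match alone, since only the 9 bases between its fixed ends vary. Hsp90b1 held a match on each strand.
Hspa5: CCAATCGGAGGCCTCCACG
Hsp90b1: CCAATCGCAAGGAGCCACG
Hsp90b1 (opposite strand): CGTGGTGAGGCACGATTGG
Canx: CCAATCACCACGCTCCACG
Pdia6: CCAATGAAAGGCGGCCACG
Dnajc3: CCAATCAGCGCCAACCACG
In all 9 members the match lay within 212 bases before the RefSeq start site. The annotation behind the counts places some start sites elsewhere, that of Hspa5 upstream of its match.

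The plasma cells of cohort D had no member past the threshold with either transgene alone. With both, P4hb, Sec61a1, Ssr3 and Dad1 rose by 1.27- to 1.44-fold and Sel1l by 2.19-fold, while Syvn1, Lman1 and Kdelr2 fell by 1.303- to 1.68-fold. In Ccnd1 against Control(D), 0 of 47 members passed the test (adjusted p under 0.05 in edgeR's quasi-likelihood test, over all genes), beside 0.00653% of the 15323 genes tested. No member had an unadjusted p under 0.05, and DESeq2 and limma voom called 0. The members of smallest p were Sel1l at a log2 fold change of 0.76, Creld2 at 0.49 and Sec11c at 0.20. In Ikk2ca(D) against Control(D), 0 members passed, beside 0.437% of genes, with 8 at an unadjusted p under 0.05 (5 higher, 3 lower). DESeq2 called 3 there and voom 0. The smallest p-values belonged to Spcs1 at 0.49 (adjusted p = 0.124), Lman1 at -0.48 (0.167) and Sel1l at 1.15 (0.192). Xist exceeded 10 CPM in 4 of 4 Ikk2ca(D) and 1 of 4 Control(D) libraries. With its level as a covariate 8 genes were called in place of 67, and 0 members.

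In Ccnd1-Ikk2ca against Control(D), 8 members passed, which is 17.0% of them, beside 11.1% of all genes. Of these 5 were higher (10.6%, beside 5.83% of genes) and 3 lower (6.38%, beside 5.32%). In bulk RNA a larger share of cells that express a gene and more RNA of it per cell cannot be told apart. The median over the 47 was 0.04, against 0.02 over all genes. The count was 3 without Control(D) replicate 1, 2 without replicate 2, 2 without replicate 3 and 5 without replicate 4, and 4 without any 1 of Ccnd1-Ikk2ca replicates 3, 4 and 5. Xist exceeded 10 CPM in 1 of 4 Control(D) and 3 of 6 Ccnd1-Ikk2ca libraries, and with its level as a covariate 3 members were called. Markers of other cells were lower in Ccnd1-Ikk2ca, with medians of 42.96 against 155.1 CPM for B cells (no overlap), 12.42 against 179.3 for neutrophils and 37.38 against 115.0 for macrophages. Plasma cell markers were lower too, at 7522 to 19490 CPM against 54140 to 99900, without overlap. The part of these markers in the result was not tested.

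The groups with both transgenes were also compared with each single transgene. In Ccnd1-Ikk2ca against Ikk2ca(D), 0 of 47 members passed, beside 0.424% of genes, with 3 at an unadjusted p under 0.05 and 0 calls by DESeq2 or voom. Kdelr2 at -0.49, Pdia4 at -0.35 and Ssr1 at 0.27 had the smallest p there, and without Ccnd1-Ikk2ca replicate 2 Kdelr2 was called. In Ccnd1-Ikk2ca against Ccnd1, 3 members passed, which is 6.38% of them, close to the 6.2% of all genes. P4hb rose (2.13%, beside 2.81% of genes), while Derl3 and Lman1 fell (4.26%, beside 3.39%). The count was 1 without Ccnd1 replicate 1, 0 without replicate 2 or 3, 5 without Ccnd1-Ikk2ca replicate 2 and 1 without replicate 5. In Ccnd1 the marker medians were 115.5 CPM for B cells, 632.2 for neutrophils and 175.4 for macrophages, all above those of Ccnd1-Ikk2ca. Plasma cell markers summed to 30330 to 119700 CPM in Ccnd1, against 7522 to 19490 in Ccnd1-Ikk2ca, without overlap. The part of these markers in the result was not tested. These comparisons share libraries and are not independent of each other.

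In cohort M members were called only in MMSET-Ikk2ca, against MMSET and against Control(M). Against MMSET, 3 chaperones and the disulfide isomerase Pdia4 fell by 1.61- to 1.76-fold, and the ERAD genes Selenos and Derl1 rose by 1.40- and 1.46-fold. Against Control(M), 3 ERAD genes, 2 translocation genes and Dad1 rose by 1.34- to 1.69-fold. In MMSET against Control(M), 0 of 47 members passed, beside 0.649% of the 15416 genes tested. At an unadjusted p under 0.05 there were 19, all higher. DESeq2 called 5 and voom 1. The values were positive for 43 of 47 members, with a median log2 fold change of 0.27 against 0.01 over all genes. Creld2 at 0.83 (adjusted p = 0.0664), Pdia6 at 0.76 (0.0978) and Sel1l at 0.79 (0.132) came nearest to the threshold. Without MMSET replicate 1, 3 members were called, and without MMSET-Ikk2ca replicate 4, 1 was. Cell type markers also differed. Plasma cell markers summed to 6922 to 24010 CPM in MMSET against 31060 to 41700 in Control(M), without overlap. B cell markers summed to 12.85 to 56.65 CPM in MMSET against 138.7 to 377.7 in Control(M), also without overlap. Neutrophil markers had medians of 110.6 and 151.4 CPM and macrophage markers of 100.8 and 115.5, with single MMSET libraries at 2476 and 836.9, and the part of these markers in the result was not tested.

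Against Control(M), Ikk2ca(M) had 0 members past the threshold, beside 0.649% of genes. Here 7 had an unadjusted p under 0.05, all higher, and DESeq2 called 2 and voom 1. The members of smallest p were Dad1 at 0.50 (adjusted p = 0.109), Spcs1 at 0.43 (0.190) and Derl1 at 0.46 (0.199). Xist exceeded 10 CPM in 4 of 4 Ikk2ca(M) and 2 of 4 Control(M) libraries. With its level as a covariate 65 genes were called in place of 100, and 0 members. In MMSET-Ikk2ca against the same controls, 6.91% of genes were called in either direction, and 0 members fell, beside 3.41% of genes. Of the 47 members 6 rose (12.8%), beside 3.5% of genes. These were Derl1, Ssr2, Selenos, Sec61a1, Sel1l and Dad1. The median over all 47 was 0.18, against 0.01 over all genes. The count was 2 without Control(M) replicate 1, 1 without replicate 3, and 3 without any 1 of MMSET-Ikk2ca replicates 1, 2 and 3. Marker sums were lower in MMSET-Ikk2ca than in Control(M), without overlap. Medians were 74.25 against 161.9 CPM for B cells, 3.753 against 151.4 for neutrophils and 48.11 against 115.5 for macrophages. For plasma cell markers they were 5546 against 36210 CPM. The part of these markers in the result was not tested.

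In MMSET-Ikk2ca against Ikk2ca(M), 0 members passed, beside 0.96% of genes, though 7 had an unadjusted p under 0.05 (5 higher, 2 lower). DESeq2 called 4 and voom 5. Spcs1 at -0.50 (adjusted p = 0.0578), Sel1l at 0.83 (0.0667) and Selenos at 0.43 (0.0871) came nearest. Leaving out MMSET replicate 1 or 4 or MMSET-Ikk2ca replicate 4 gave 2 calls, and leaving out Ikk2ca(M) replicate 3 gave 1. In MMSET-Ikk2ca against MMSET, 6 members passed, which is 12.8% of them, beside 1.58% of genes. Pdia4, Hsp90b1, Calr and Creld2 fell (0.941% of genes were lower), and Selenos and Derl1 rose (0.642% were higher). The count was 1 without MMSET replicate 2, 2 without replicate 4, and 1 without MMSET-Ikk2ca replicate 1, 2 or 6. It was 3 without MMSET-Ikk2ca replicate 3 or 5 or Ikk2ca(M) replicate 2 or 3, and 9 without MMSET-Ikk2ca replicate 4. Xist exceeded 10 CPM in 3 of 4 MMSET and 3 of 6 MMSET-Ikk2ca libraries, and with it as a covariate 2 members were called. Neutrophil markers summed to at most 11.6 CPM in MMSET-Ikk2ca against 40.88 to 2476 in MMSET, without overlap. Macrophage markers summed to at most 69.4 CPM in MMSET-Ikk2ca against 67.64 to 836.9 in MMSET, and these ranges overlapped. B cell markers went the other way, at 57.65 to 111.1 CPM against 12.85 to 56.65 in MMSET, without overlap. Plasma cell markers were lower, at 4430 to 6387 CPM against 6922 to 24010, also without overlap. The part of these markers in the result was not tested.

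**Figure D2:**
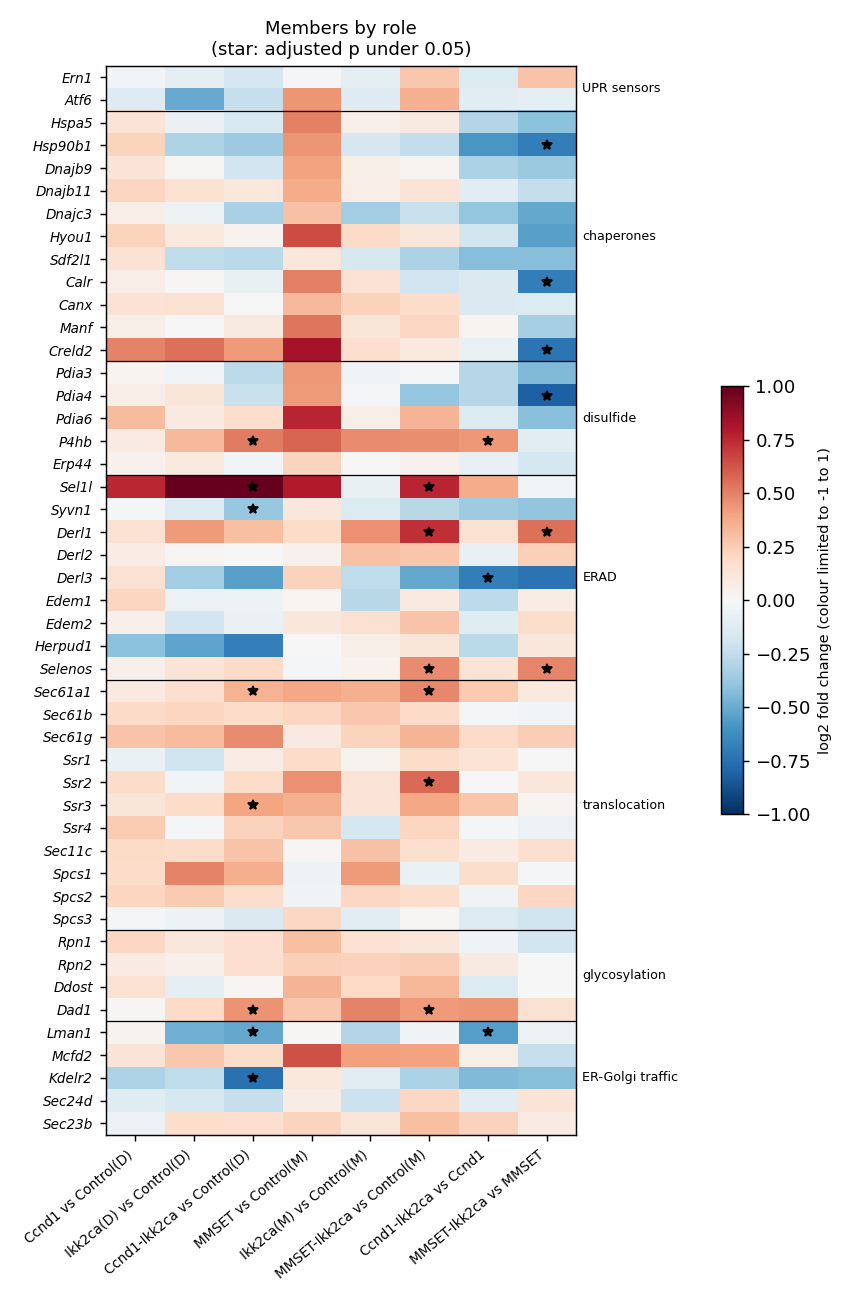
Log2 fold change of each member (rows, by role) in 8 comparisons (columns), with colour limited to the range from -1 to 1 and a star where the adjusted p was under 0.05. Chaperones and disulfide enzymes are red in MMSET against Control(M) and blue in MMSET-Ikk2ca against MMSET, and Sel1l is the darkest cell in cohort D.

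Neither sensor passed the test in any comparison. Ern1, the kinase and ribonuclease that splices Xbp1 mRNA, stood at 29.5, 47.8, 43.1 and 22.7 CPM in Control(D) and at 40.04, 35.7, 34.2 and 40.9 in Control(M), and group means ran from 31.9 to 45.5 over all 8 groups. Atf6, the membrane-bound transcription factor that is released by cleavage, stood at 95.6, 84.7, 85.3 and 85.8 CPM in Control(D) and at 49.7, 59.95, 85.9 and 52.2 in Ikk2ca(D). Its difference of -0.50 in Ikk2ca(D) (SE 0.172, adjusted p = 0.198) did not pass, and 1 of the 4 Ikk2ca(D) libraries lay among the controls. The annotation used holds no separate IRE1-spliced Xbp1 transcript, so splicing was not measured here.

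Among the chaperones, 3 of 11 fell in MMSET-Ikk2ca against MMSET and 0 passed in the other 13 comparisons. Hsp90b1 (chromosome 10, 86690209 to 86705509, GRCm38) stood at 2383, 3869, 2969 and 3392 CPM in MMSET and at 1454 to 2643 in MMSET-Ikk2ca, with a median of 1917. All but 1 of the 6 MMSET-Ikk2ca libraries lay below every MMSET library. The mean was 1.62-fold lower (log2 fold change -0.70, SE 0.150, adjusted p = 0.0238). In Control(M) its values were 2030, 2025, 2629 and 2580 CPM and in Ikk2ca(M) 2165, 1791, 1905 and 2401. Of the MMSET libraries 3 lay above all libraries of the other groups of the cohort, and replicate 1 lay within the range of Control(M).

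Calr encodes calreticulin, a lectin chaperone that binds calcium (chromosome 8, 84841850 to 84846934). It stood at 281.8, 431.7, 337.8 and 383.2 CPM in MMSET and between 176.2 and 303.4 in MMSET-Ikk2ca, with a median of 220.0. Again 5 of 6 libraries lay below all of MMSET, and the mean was 1.61-fold lower (log2 fold change -0.69, SE 0.160, adjusted p = 0.0358). Creld2, an ER stress-induced protein with disulfide isomerase activity (chromosome 15, 88819646 to 88826683), had 929.4, 1490, 1075 and 1664 CPM in MMSET. In MMSET-Ikk2ca it ranged from 628.5 to 1134 with a median of 708.6, 1.66-fold lower (log2 fold change -0.73, SE 0.182, adjusted p = 0.0479). Its 4 MMSET libraries lay above all 4 of Control(M), where it stood at 615.4, 762.9, 660.0 and 864.4 CPM. In each of these 3 chaperones the highest MMSET-Ikk2ca library was replicate 4, and the groups overlapped only through it. The calls of Hsp90b1, Calr and Creld2 were lost in 5, 8 and 15 of 18 fits with 1 library left out, with log2 fold changes from -0.81 to -0.57, -0.80 to -0.58 and -0.87 to -0.59.

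The other 8 chaperones showed the same signs without a call. Hspa5, the central Hsp70 of the ER, stood at 1555, 2223, 1319 and 1831 CPM in MMSET, at 1117, 1044, 1221 and 1507 in Control(M) and at a median of 1225 in MMSET-Ikk2ca. Its values were 0.50 in MMSET against Control(M) (adjusted p = 0.274) and -0.41 in MMSET-Ikk2ca against MMSET (adjusted p = 0.303). Hyou1, a nucleotide exchange factor for Hspa5, stood at 249.7, 362.5, 176.1 and 368.4 CPM in MMSET and at 187.3, 156.6, 210.9 and 179.4 in Control(M), so that 3 of 4 MMSET libraries were high (0.66, adjusted p = 0.225). The J-domain cochaperones Dnajb9, Dnajb11 and Dnajc3 had 0.40, 0.37 and 0.29 in that comparison and -0.37, -0.24 and -0.51 between MMSET-Ikk2ca and MMSET. The lectin chaperone Canx had 0.32 and -0.14, the secreted stress factor Manf 0.54 and -0.33, and the cochaperone Sdf2l1 0.11 and -0.43. Over all 11 chaperones, each value was positive in MMSET against Control(M), with a median of 0.45, and each was negative in MMSET-Ikk2ca against MMSET, with a median of -0.43. The medians over all genes in these comparisons were 0.01 and 0.00. Both comparisons use the same 4 MMSET libraries, so high MMSET values enter them with opposite sign. Against Control(M), MMSET-Ikk2ca had 7 positive values of 11 and a median of 0.09. In cohort D all 11 were positive in Ccnd1 against Control(D), with a median of 0.15 and no unadjusted p under 0.05.

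Of the 5 disulfide enzymes, Pdia4 gave the clearest difference. Pdia4 (chromosome 6, 47796141 to 47813430) stood at 1845, 2312, 1579 and 2106 CPM in MMSET. Its 6 MMSET-Ikk2ca libraries ranged from 898.2 to 1571 with a median of 1045. In CPM these groups did not overlap, although the lowest MMSET and the highest MMSET-Ikk2ca library were close. In rescaled TPM they did, with 2306 in the highest MMSET-Ikk2ca library and 2215 in the lowest of MMSET. Pdia4 fell 1.76-fold (log2 fold change -0.81, SE 0.140, adjusted p = 0.00509), and the call was kept in all 8 alternative settings and all 18 fits with 1 library left out. Control(M), at 1383, 1299, 1614 and 1537 CPM, overlapped both groups, and Ikk2ca(M) had 1349, 1407, 1657 and 1367. Pdia6, which reduces disulfides on substrates and on the stress sensors, stood at 534.3, 927.1, 901.8 and 966.8 CPM in MMSET against 443.0, 474.5, 503.9 and 546.8 in Control(M). All but replicate 1 of MMSET lay well above the controls (0.76, SE 0.199, adjusted p = 0.0978), and MMSET-Ikk2ca had a median of 596.0. Pdia3, the isomerase that works with calnexin and calreticulin, and Erp44, which retains assembly intermediates, had values of 0.43 and 0.22 in MMSET against Control(M) and -0.44 and -0.18 in MMSET-Ikk2ca against MMSET. All 5 enzymes had negative values in the latter, with a median of -0.42.

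P4hb encodes protein disulfide isomerase, the most studied enzyme of this family (chromosome 11, 120560298 to 120573253). It stood at 425.3, 414.1, 476.5 and 453.5 CPM in Control(D) and at 389.2, 524.1, 467.4 and 496.4 in Ccnd1. In Ikk2ca(D) it had 474.8, 595.9, 559.2 and 587.5 CPM, and in Ccnd1-Ikk2ca between 526.1 and 803.3 with a median of 614.9. All 6 libraries of Ccnd1-Ikk2ca lay above all of Control(D) and Ccnd1. Against Control(D) it rose 1.44-fold (log2 fold change 0.52, SE 0.123, adjusted p = 0.0109), kept in all 8 alternatives and all 18 fits with 1 library left out. Against Ccnd1 it rose by 0.44 on the log2 scale (SE 0.123, adjusted p = 0.0403), a call lost in 11 of the 18 fits, which gave 0.36 to 0.50. In cohort M its values against Control(M) were 0.58 with MMSET, 0.47 with Ikk2ca(M) and 0.46 with both, none past the threshold (adjusted p = 0.153, 0.270 and 0.0912).

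**Figure D3:**
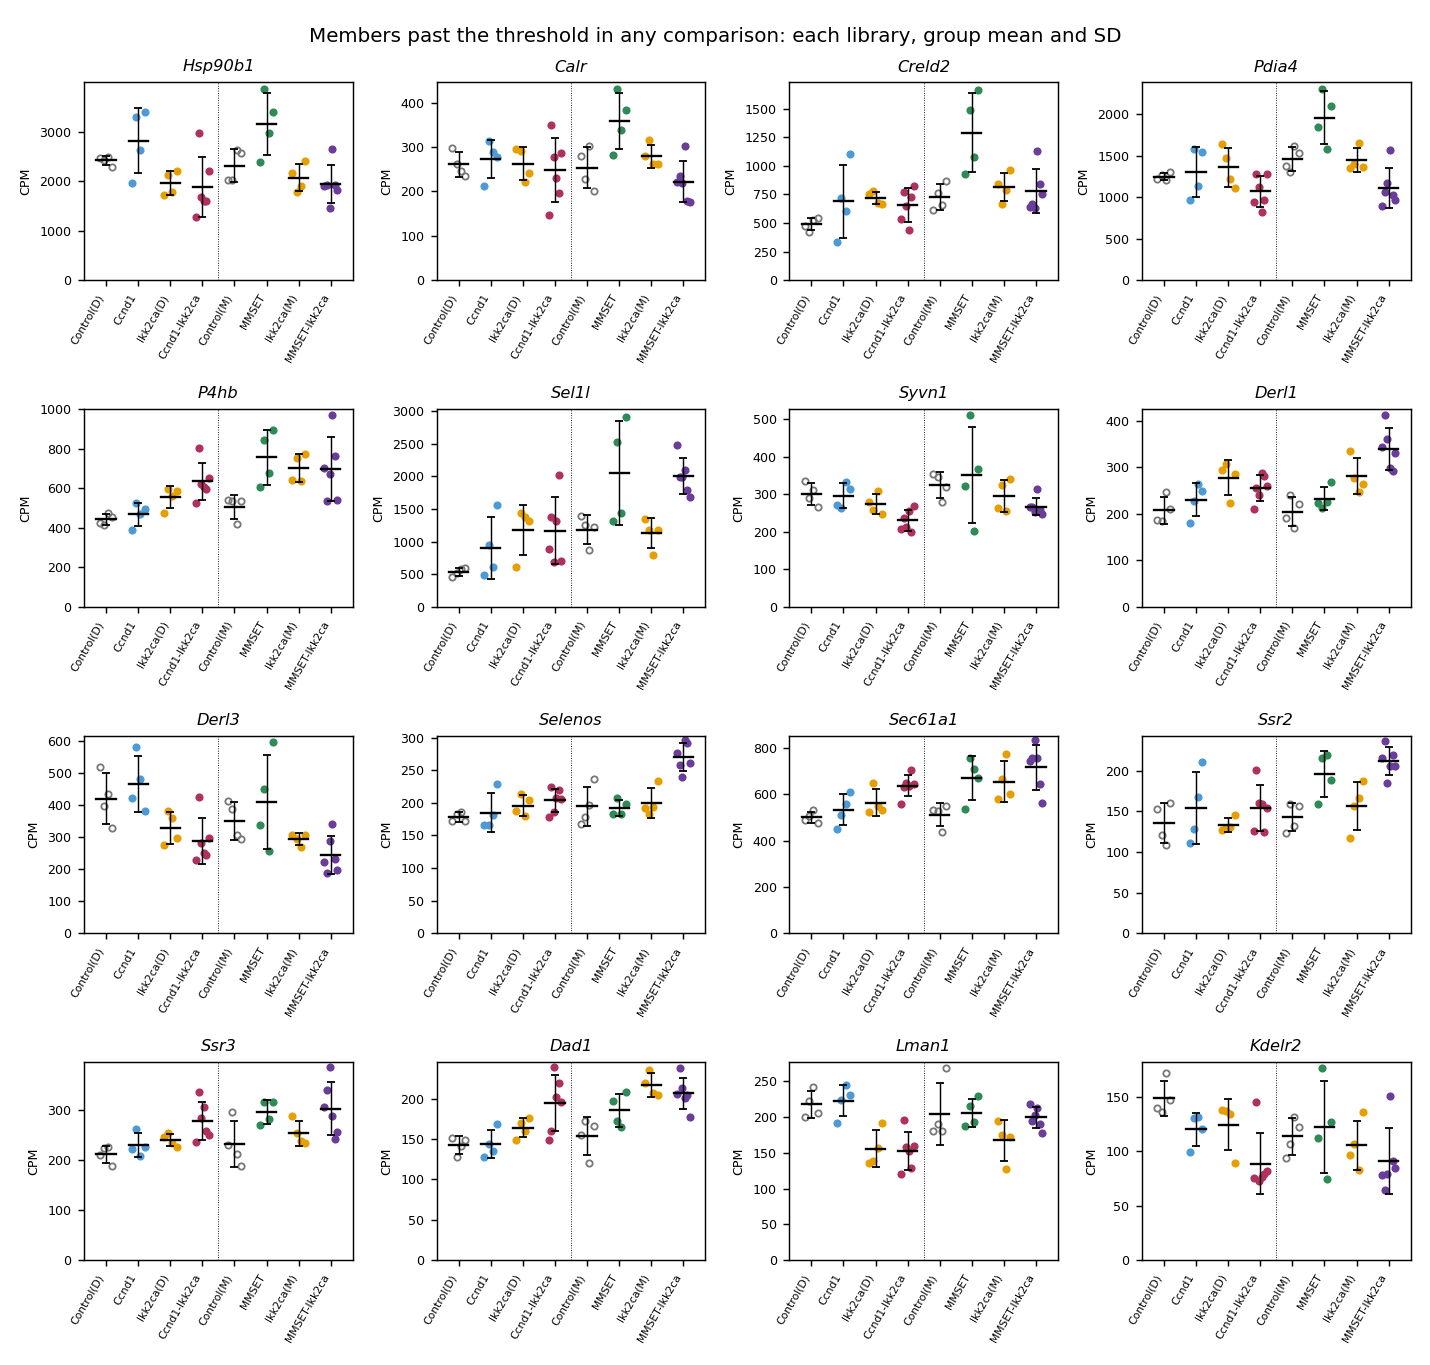
Level in CPM of the 16 members that passed the threshold in any comparison, in every library of the 8 groups; horizontal bars are group means with SD and a dotted line parts the cohorts. Pdia4 in MMSET-Ikk2ca lies wholly below MMSET, P4hb in Ccnd1-Ikk2ca wholly above Control(D), and all Control(D) values of Sel1l below the other 7 groups' means.

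Of the 9 ERAD genes 5 passed in some comparison: Sel1l, Derl1 and Selenos rose, and Derl3 and Syvn1 fell. Sel1l, the adaptor of the HRD1 ubiquitin ligase (chromosome 12, 91806043 to 91849157), stood at 451.3, 518.2, 579.1 and 587.2 CPM in Control(D). It ranged from 691.4 to 2027 in Ccnd1-Ikk2ca with a median of 1100, every library above the controls. The rise was 2.19-fold (log2 fold change 1.13, SE 0.354, adjusted p = 0.0492), and the call was lost in 12 of 18 fits with 1 library left out (0.92 to 1.24) and in 4 of 8 alternatives. Ikk2ca(D) had 610.6, 1432, 1377 and 1312 CPM and Ccnd1 had 481.9, 948.5, 614.1 and 1561, so replicates of both spread widely. In Control(M) it stood at 1395, 1250, 868.4 and 1222 CPM, above all of Control(D). In MMSET-Ikk2ca it ranged from 1680 to 2477 with a median of 1990, again without overlap, and rose 1.69-fold (log2 fold change 0.76, SE 0.209, adjusted p = 0.0345). That call was lost in 6 of 18 fits (0.64 to 0.86). MMSET, at 1310, 2531, 1439 and 2908 CPM, had a mean of 2047 against 2004 in MMSET-Ikk2ca. Ikk2ca(M), at 1342, 1184, 796.0 and 1184 CPM, overlapped Control(M), with 1 library below all of it.

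Derl1, a channel component of ERAD (chromosome 15, 57869502 to 57892448), stood at 190.3, 239.2, 169.5 and 220.1 CPM in Control(M) and at 223.0, 212.7, 224.9 and 268.7 in MMSET. In MMSET-Ikk2ca it lay between 291.3 and 413.0 with a median of 337.1, above every library of both groups. Against Control(M) it rose 1.66-fold (log2 fold change 0.73, SE 0.135, adjusted p = 0.00248), in all 8 alternatives and all 18 fits with 1 library left out. Against MMSET it rose 1.46-fold (0.55, SE 0.134, adjusted p = 0.0458), lost in 12 of the 18 fits (0.48 to 0.62). Ikk2ca(M) had 335.7, 277.4, 247.2 and 263.0 CPM, also above all of Control(M) but short of the threshold.

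Selenos, a selenoprotein that binds the p97 ATPase at the ER membrane (chromosome 7, 66079649 to 66089405), behaved in a similar way. It stood at 168.1, 178.3, 197.0 and 236.3 CPM in Control(M), at 182.7, 207.2, 182.4 and 198.8 in MMSET and between 238.9 and 296.0 in MMSET-Ikk2ca, with a median of 268.4. In CPM every library of MMSET-Ikk2ca lay above all of both groups, though the lowest was close to the highest of Control(M). In rescaled TPM MMSET-Ikk2ca overlapped Control(M), with 684.2 in its lowest library and 815.9 in the highest of Control(M). Selenos rose 1.39-fold against Control(M) (log2 fold change 0.47, SE 0.118, adjusted p = 0.0206), lost without Control(M) replicate 1, 2 or 3 (0.42 to 0.58 over the 18 fits). It rose 1.40-fold against MMSET (0.49, SE 0.118, adjusted p = 0.0437), lost in 14 of 18 fits (0.46 to 0.53).

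Derl3, a derlin that is induced by the unfolded protein response (chromosome 10, 75893413 to 75895941), stood at 420.2, 579.7, 480.4 and 380.2 CPM in Ccnd1 and between 229.0 and 425.3 in Ccnd1-Ikk2ca, with a median of 265.0. Only replicate 2 of Ccnd1-Ikk2ca reached the Ccnd1 range. It was 1.62-fold lower (log2 fold change -0.69, SE 0.175, adjusted p = 0.0229), lost without Ccnd1 replicate 1, 2 or 3 or Ccnd1-Ikk2ca replicate 5 (-0.84 to -0.57 over the 18 fits). In MMSET-Ikk2ca against MMSET its value was -0.74 (adjusted p = 0.0729), with 336.7, 447.8, 256.5 and 594.9 CPM in MMSET and a median of 227.2 in MMSET-Ikk2ca. Syvn1, which encodes the ubiquitin ligase HRD1 (chromosome 19, 6046576 to 6053712), stood at 335.5, 289.4, 310.4 and 266.5 CPM in Control(D) and from 199.9 to 268.5 in Ccnd1-Ikk2ca, with a median of 225.9. It fell 1.303-fold (log2 fold change -0.38, SE 0.118, adjusted p = 0.0428), so the ligase and its adaptor Sel1l went opposite ways in this group. The Syvn1 call was lost in 7 of 18 fits (-0.44 to -0.33). Syvn1 overlaps Mrpl49 on the other strand, and without strand their reads cannot be separated, but Mrpl49 stood at a mean of only 7.80 CPM.

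The remaining ERAD members passed in none of the comparisons. Herpud1 stood at 1989, 1734, 2424 and 1491 CPM in Control(D), above most of Ccnd1-Ikk2ca, which ranged from 810.6 to 1689 (log2 fold change -0.68, SE 0.227, adjusted p = 0.0586). In Control(M) it had 1376, 846.8, 1198 and 1377 CPM, overlapping MMSET-Ikk2ca, whose median was 1226. Edem1 had group means from 1136 to 1501 CPM. Derl2, a homologue of Derl1, and Edem2, a homologue of Edem1, had values between -0.36 and 0.29 over the 14 comparisons.

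Of the translocation genes, Sec61a1 and Ssr3 rose in Ccnd1-Ikk2ca against Control(D), and Sec61a1 and Ssr2 in MMSET-Ikk2ca against Control(M). Of all 11, 10 had positive values in Ccnd1-Ikk2ca against Control(D), with a median of 0.23, and 2 rose. In MMSET-Ikk2ca against Control(M) 10 were again positive and 2 rose, with a median of 0.19. Groups with 1 transgene had similar values without a call, with medians of 0.18 in Ikk2ca(D), 0.21 in Ikk2ca(M) and 0.21 in MMSET. Sec61a1, the pore of the translocon (chromosome 6, 88503579 to 88518905), was called in both cohorts. It stood at 488.4, 505.5, 531.2 and 477.2 CPM in Control(D) and from 559.9 to 705.9 in Ccnd1-Ikk2ca (median 638.7), without overlap. The rise was 1.27-fold (log2 fold change 0.35, SE 0.106, adjusted p = 0.0396), lost in 11 of 18 fits (0.33 to 0.38). In Control(M) its values were 534.0, 527.7, 437.3 and 550.2 CPM, and in MMSET-Ikk2ca 563.0 to 833.2 (median 749.3), without overlap in CPM. In rescaled TPM these groups overlapped, with 619.8 in the lowest MMSET-Ikk2ca library and 694.9 in the highest of Control(M). Sec61a1 was 1.40-fold higher (0.48, SE 0.131, adjusted p = 0.0317), lost in 6 of 18 fits (0.41 to 0.55).

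Subunits of the translocon-associated protein complex, which helps some proteins through the channel, were called in 1 cohort each. Ssr3 (chromosome 3, 65379655 to 65392623) stood at 209.8, 222.9, 224.5 and 187.5 CPM in Control(D) and from 234.8 to 335.0 in Ccnd1-Ikk2ca (median 270.1), every library above the controls. It rose 1.32-fold (log2 fold change 0.40, SE 0.117, adjusted p = 0.0350), lost in 7 of 18 fits (0.33 to 0.44). In MMSET-Ikk2ca against Control(M) its value was 0.39 (adjusted p = 0.118). Ssr2 (chromosome 3, 88575876 to 88588419) stood at 123.9, 159.2, 132.1 and 156.0 CPM in Control(M) and from 184.9 to 236.7 in MMSET-Ikk2ca (median 210.8). It rose 1.48-fold (log2 fold change 0.57, SE 0.138, adjusted p = 0.0175), lost without Control(M) replicate 1 or 3 (0.52 to 0.64). MMSET, at 159.5, 215.7, 219.4 and 188.2 CPM, also lay above all of Control(M), but only just and short of the threshold. In rescaled TPM both groups overlapped Control(M). Its highest library stood at 620.6, and the lowest of MMSET and MMSET-Ikk2ca at 571.5 and 609.6. The difference between the 2 cohorts was 0.00 for Ssr3 and -0.39 for Ssr2, neither called.

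Spcs1, a subunit of the signal peptidase complex, was higher in both Ikk2ca groups, though not past the threshold. It stood at 227.7, 247.8, 268.8 and 270.4 CPM in Control(D) and 322.8, 412.5, 341.4 and 351.2 in Ikk2ca(D). In Control(M) it had 282.5, 316.5, 292.6 and 305.6 CPM, in Ikk2ca(M) 410.4, 432.5, 335.1 and 433.6, and in MMSET-Ikk2ca a median of 275.0. Ikk2ca and control libraries did not overlap in either cohort. Its reads cannot be told from those of Glt8d1 on the other strand, which stood at a mean of 30.6 CPM. Sec61g, a small subunit of the channel, had 19.9, 16.6, 19.5 and 19.5 CPM in Control(D) and 18.5 to 34.8 in Ccnd1-Ikk2ca, where 5 of 6 libraries were higher (0.48, adjusted p = 0.0558). Sec61b, Ssr1, Ssr4, Sec11c, Spcs2 and Spcs3 were called in no comparison, and their values ran from -0.15 to 0.29 in Ccnd1-Ikk2ca against Control(D) and from 0.01 to 0.21 in MMSET-Ikk2ca against Control(M).

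Glycosylation genes encode subunits of the oligosaccharyltransferase, and Dad1 was the 1 of 4 that was called. Dad1 (chromosome 14, 54235479 to 54254104) stood at 151.5, 127.7, 141.8 and 149.4 CPM in Control(D) and from 148.5 to 239.4 in Ccnd1-Ikk2ca (median 199.4), where 5 of 6 libraries lay above the controls. It rose 1.36-fold (log2 fold change 0.45, SE 0.135, adjusted p = 0.0371), lost in 8 of 18 fits (0.38 to 0.52). In Control(M) it stood at 155.5, 173.0, 120.4 and 166.6 CPM and in MMSET-Ikk2ca from 177.3 to 238.1 (median 204.8), 1.34-fold higher (0.43, SE 0.122, adjusted p = 0.0404), lost in 10 of 18 fits (0.33 to 0.50). Ikk2ca(M), at 219.9, 236.1, 207.4 and 204.2 CPM, was as high without passing the threshold. Rpn1, Rpn2 and Ddost had values from 0.02 to 0.17 and from 0.11 to 0.33 in these comparisons.

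Of the 5 genes of traffic between ER and Golgi, Lman1 and Kdelr2 fell in cohort D and none was called in cohort M. Lman1, the lectin ERGIC-53 that carries glycoproteins out of the ER, lies on chromosome 18 from 65980738 to 66022580. It stood at 200.8, 223.1, 241.9 and 205.4 CPM in Control(D) and at 192.4, 223.9, 244.7 and 231.6 in Ccnd1. In Ikk2ca(D) it had 136.2, 138.1, 157.2 and 192.1 CPM and in Ccnd1-Ikk2ca 121.0 to 195.7 (median 155.3), both wholly below Control(D). It fell 1.43-fold against Control(D) (log2 fold change -0.51, SE 0.138, adjusted p = 0.0214), lost without Control(D) replicate 2 or 3 or Ccnd1-Ikk2ca replicate 5 (-0.60 to -0.45). It fell 1.46-fold against Ccnd1 (-0.55, SE 0.138, adjusted p = 0.0220), lost without Ccnd1 replicate 2 or 3 or Ccnd1-Ikk2ca replicate 5 (-0.63 to -0.48). In MMSET-Ikk2ca against Control(M) its value was -0.04. Mcfd2, the partner of Lman1 in cargo transport, was not called and had 0.19 in Ccnd1-Ikk2ca against Control(D).

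Kdelr2 encodes a receptor that returns escaped ER chaperones from the Golgi (chromosome 5, 143403838 to 143421901). It stood at 139.9, 136.7, 171.8 and 147.2 CPM in Control(D). Of the 6 Ccnd1-Ikk2ca libraries, 5 lay between 73.2 and 82.1 CPM and replicate 2 at 145.2, with a median of 78.0. The mean was 1.68-fold lower (log2 fold change -0.75, SE 0.181, adjusted p = 0.0126), called in all 18 fits with 1 library left out (-0.94 to -0.67) and lost in 1 of 8 alternatives, with replicates 1 to 4 only (-0.66). In MMSET-Ikk2ca against Control(M) its value was -0.32, with replicate 4 at 150.7 CPM and the others between 64.7 and 91.1. Sec24d and Sec23b, which coat COPII vesicles, were not called in any comparison.

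Whether the 2 transgenes added up was asked by interaction terms, which passed for no member in edgeR. In cohort D 0 of 47 passed, beside 0.0261% of genes, with none at an unadjusted p under 0.05 and 0 calls by DESeq2 or voom. In cohort M 0 passed, beside 0.0973% of genes, with 10 at an unadjusted p under 0.05, 1 positive and 9 negative, and DESeq2 called 2 and voom 1. All 16 chaperones and disulfide enzymes had negative terms in cohort M, with medians of -0.46 and -0.48 against 0.00 over all genes. The members of smallest p were Pdia4 at -0.80 (SE 0.209, adjusted p = 0.157), Calr at -0.83 (adjusted p = 0.204) and Creld2 at -0.90 (adjusted p = 0.226). Without MMSET-Ikk2ca replicate 4, Pdia4 was called.

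**Figure D4:**
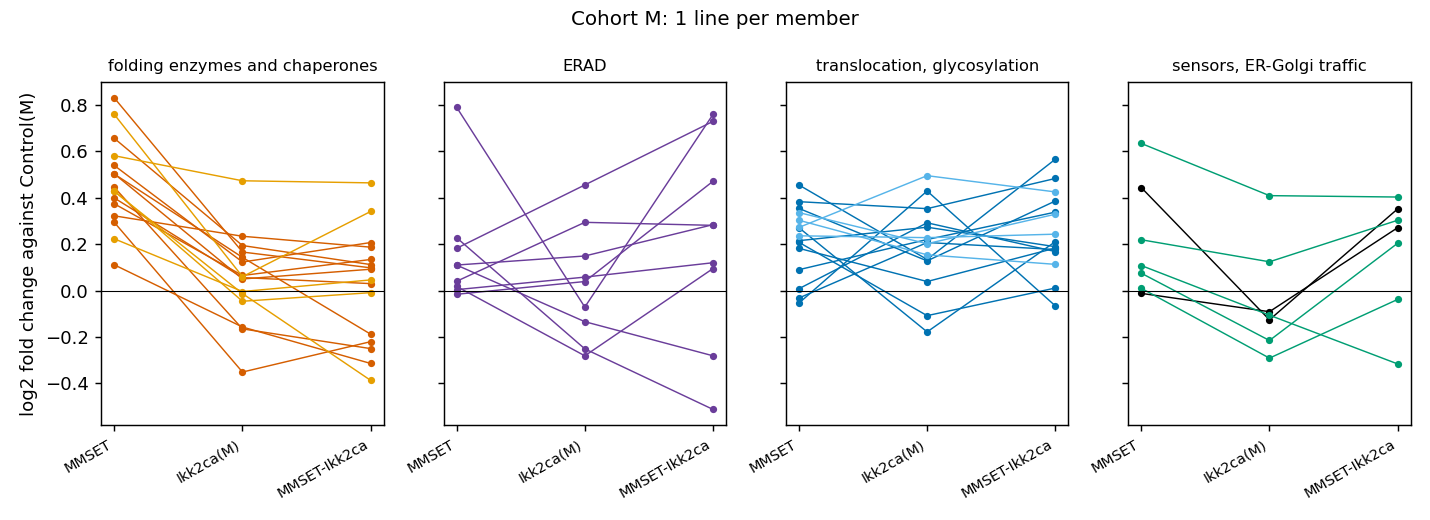
Log2 fold change against Control(M) of each member in MMSET, Ikk2ca(M) and MMSET-Ikk2ca, 1 line per member, in 4 panels by role. Lines of folding enzymes and chaperones (orange, yellow) are all positive in MMSET and all lower in MMSET-Ikk2ca than in MMSET, by differing amounts. Sel1l, Derl1 and Selenos are the 3 highest ERAD lines in MMSET-Ikk2ca. A line joins 3 separate groups, not steps of a sequence, and all 3 of its values share the same control libraries.

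The effects in the 2 cohorts were compared in a fit over all 36 libraries. For the Ikk2ca effect in cohort D minus that in cohort M, 0 of 47 members passed, beside 0% of 17116 genes, with 1 at an unadjusted p under 0.05 and 0 calls by DESeq2 or voom. This was Sel1l, whose Ikk2ca effects of 1.15 and -0.07 differed by 1.21 (SE 0.457, adjusted p = 0.661). For Ccnd1-Ikk2ca against its control minus MMSET-Ikk2ca against its control, 0 passed, beside 0.175% of genes, with 5 at an unadjusted p under 0.05 (1 positive, 4 negative) and 0 calls by DESeq2 or voom. Lman1 at -0.48 (adjusted p = 0.323), Spcs1 at 0.42 (0.327) and Herpud1 at -0.81 (0.353) had the smallest p. The changes that passed in 1 cohort only, such as those of Lman1 and Derl1, were thus not shown to differ between cohorts.

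Members with the ERSE letters in their window are compared here with the others as a description. In MMSET against Control(M) 9 of 9 had positive values, with a median of 0.45. So had 24 of the 28 members with a window but no match (median 0.22) and 10 of 10 without a window (0.30). In MMSET-Ikk2ca against MMSET 9 of 9 were negative, with a median of -0.51, against 0.00 for the 28, of which 14 were negative. The same 9 were all negative in Ccnd1-Ikk2ca against Ccnd1, with a median of -0.29, against -0.04 for the 28. In MMSET-Ikk2ca against Control(M) 4 of the 9 were positive and 5 negative, with a median of -0.19 against 0.21 for the 28. Of the 9, 6 are chaperones, so role and element cannot be told apart here.

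Summed over all 47, members took 3.87% ± 0.08 of non-immunoglobulin TPM in Control(D) and 3.85% ± 0.40 in Ccnd1-Ikk2ca (SD, n = 4 and 6). In cohort M the share was 4.05% ± 0.53 in Control(M) and 4.04% ± 0.31 in Ikk2ca(M), against 4.80% ± 0.53 in MMSET and 4.30% ± 0.57 in MMSET-Ikk2ca. Library ranges of these groups overlapped. Chaperones alone took 1.39% ± 0.25 in MMSET, against 1.04% ± 0.19 in Control(M) and 0.962% ± 0.26 in MMSET-Ikk2ca. Translocation genes took 1.07% ± 0.06 in Control(D) and 1.27% ± 0.08 in Ccnd1-Ikk2ca, and ER-Golgi traffic genes 0.0999% ± 0.0071 and 0.0763% ± 0.0107. These shares are descriptions with no test. As a share of all TPM, in which immunoglobulin genes weigh, the sums gave other ratios. That of MMSET to Control(M) was 1.02 for all members and 1.16 for chaperones, against 1.18 and 1.34 outside the immunoglobulin loci. For MMSET-Ikk2ca to Control(M) the chaperone ratio was 1.2044, against 0.9262 outside the immunoglobulin loci. As a share of all TPM the chaperone sum was thus not lower in MMSET-Ikk2ca than in MMSET. Its lower level there was seen only with immunoglobulin genes left out of the total.

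**Figure D5:**
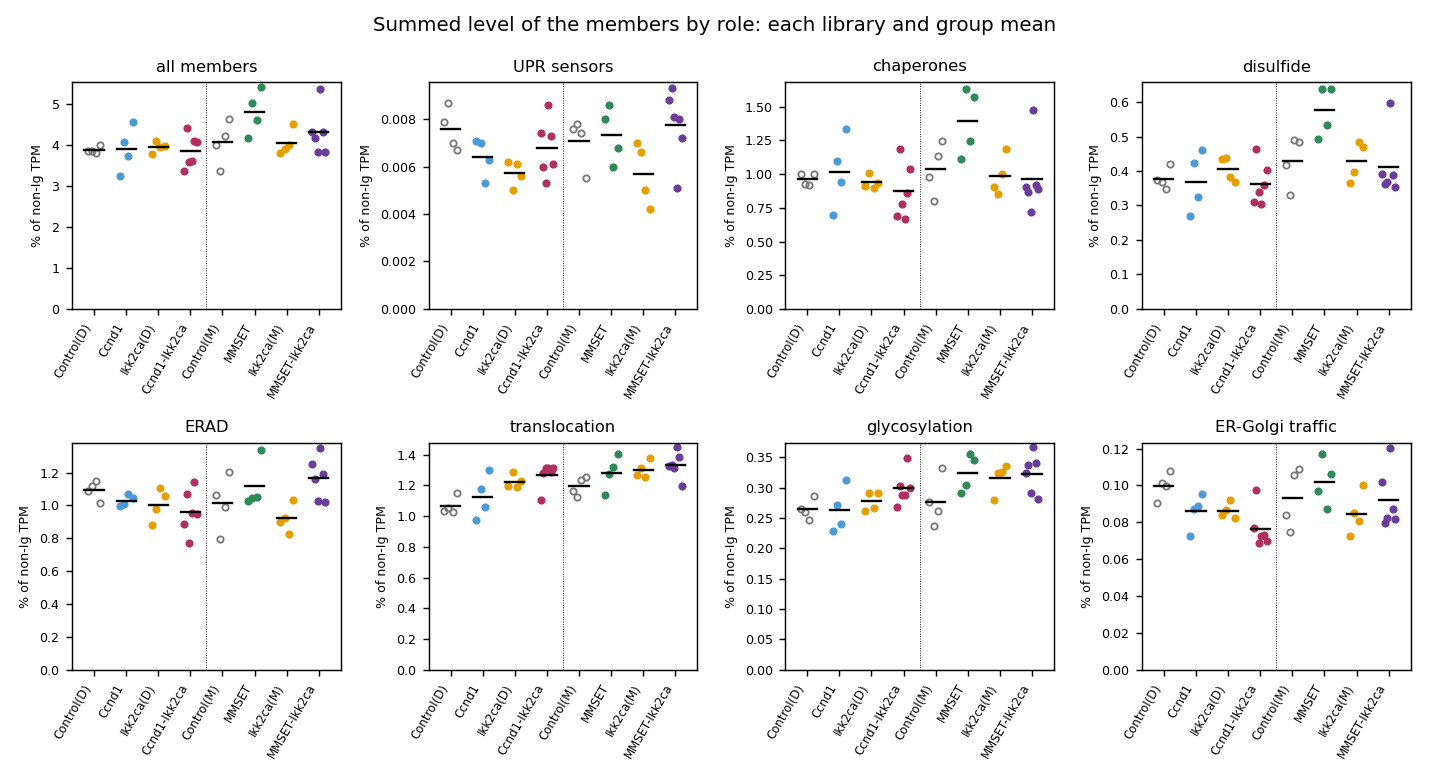
Summed level of the members of each role as a percentage of non-immunoglobulin TPM in every library, with group means as bars. The chaperone and disulfide sums are highest in MMSET, the mean translocation sum is lowest in Control(D), and the ranges of all members together overlap between groups within each cohort.

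A list of 77 other ER genes, taken by function from the same pathways, was read in the same fits. In Ccnd1-Ikk2ca against Control(D) 8 of 77 rose, beside 5.83% of all genes, and 4 fell, beside 5.32%, with a median of 0.07. The glucosidase subunits Ganab and Prkcsh, which trim new glycans, rose by 0.75 (adjusted p = 0.00255) and 0.91 (0.0045), and Ufd1 of the p97 complex by 0.72 (0.00256). Srp14 of the signal recognition particle rose by 0.82 (adjusted p = 0.00753). The oligosaccharyltransferase catalytic subunit Stt3b fell by 1.03 on the log2 scale (adjusted p = 0.00467) and the ubiquitin-conjugating enzyme Ube2g2 fell by 0.65 (0.00962). In Ccnd1-Ikk2ca against Ccnd1, Srp14 rose by 0.64 (adjusted p = 0.0436) and Ost4 of the oligosaccharyltransferase fell by 0.61 (0.0442). That is 1 of 77 higher, beside 2.81% of all genes, and 1 lower, beside 3.39%.

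In cohort M the disulfide isomerase Pdia5 had 2.85 ± 1.67 CPM in Control(M) against 20.5 ± 7.23 in MMSET and 28.8 ± 3.82 in MMSET-Ikk2ca (SD, n = 4, 4 and 6). On the log2 scale it rose by 2.85 with MMSET alone (SE 0.390, adjusted p = 0.00125). In Ikk2ca(M) against Control(M) its value was 1.59, not past the threshold. With both transgenes it rose by 3.33 over Control(M) (adjusted p = 3.85e-05) and by 1.75 over Ikk2ca(M) (adjusted p = 0.0179). Txndc5, a plasma cell isomerase, had 2661 ± 239 CPM in Control(M), 1412 ± 442.6 in MMSET and 799.3 ± 134.9 in MMSET-Ikk2ca. It fell by 1.74 in MMSET-Ikk2ca against Control(M) (adjusted p = 2.28e-05), by 1.196 against Ikk2ca(M) (0.0033) and by 0.82 against MMSET (0.0358). In all, 6 of 77 rose, beside 3.5% of all genes, and 2 fell, beside 3.41%, in MMSET-Ikk2ca against Control(M). Xbp1, named after its value was seen, fell by 0.73 (adjusted p = 0.0275), from 2879 ± 589.2 to 1732 ± 350 CPM (SD, n = 4 and 6). The signal recognition receptor subunit Srprb and the prolyl isomerase Fkbp11 rose by 0.62 (adjusted p = 0.00819) and 0.94 (0.00868), and the peroxiredoxin Prdx4 and the ATF6 homologue Atf6b by 0.67 (0.0238) and 0.56 (0.0258). In MMSET against Control(M) Pdia5 was the 1 gene of 77 called, beside 0.649% of all genes. Against Ikk2ca(M), MMSET-Ikk2ca had 1 of 77 higher and 1 lower, beside 0.96% of all genes called in either direction. Against MMSET it had 0 of 77 higher, beside 0.642% of all genes, and 1 lower, beside 0.941%. In the 8 comparisons without a gene named from this list edgeR called 0 of 77, with 2 to 16 at an unadjusted p under 0.05.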

How the data were processed

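Reads were quantified per transcript with Salmon 1.3.0 after bcl2fastq 2.20.0.422, per the submitters' processing notes, which also name GRCm38 and DESeq2 1.32.0. The tables deposited by the authors hold estimated counts per transcript and TPM, per the file headers, with transcript lengths. Strand use in counting is not given in the sources used here. Here estimated counts were summed over the transcripts of each gene (GENCODE M21) and rounded: 139960 of 140825 transcripts were matched, and the 865 others, with at most 0.134% of reads, were left out. Deposited TPM was summed likewise and rescaled to the genes outside the immunoglobulin loci.

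Genes with low counts were removed (filterByExpr), libraries were scaled by TMM and edgeR 4.0.16 quasi-likelihood models were fitted in R 4.3.3, 1 per cohort over its 4 groups and 1 over all 36 libraries for differences between cohorts. P-values were adjusted by Benjamini-Hochberg over all genes tested, with a threshold of 0.05. SEs were derived from the fold change and its F statistic. CPM of members and other ER genes were scaled within a cohort, so levels are not set across cohorts except as descriptions. Whether groups overlapped for a member is given in this CPM. In rescaled TPM some groups that were apart in CPM overlapped. Among them were groups of Selenos, Sec61a1, Ssr2, Creld2 and Pdia4 in cohort M and of Lman1 and Sel1l in cohort D. CPM of transgenes, Xist, cell markers and genes that overlap a member were scaled over all 36 libraries. Alternatives were DESeq2 1.42.0, limma 3.58.1 voom with quality weights, DESeq2 size factors, no low-count filter, no immunoglobulin genes, Xist as a covariate, a replicate block, replicates 1 to 4 of the groups with both transgenes, and each library left out. Scripts were tested on simulated data. Tables and plots used Python 3.11.15 with numpy 2.4.6, pandas 2.3.3 and matplotlib 3.10.9.

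The members and lists were chosen with earlier results of these data known. In each comparison all called members are named, or the 3 of smallest p where fewer than 3 were called, and Hspa5, Hsp90b1, Ern1, Atf6, Sel1l, Syvn1, Derl3, Herpud1, Dnajb9, Sec61a1 and Edem1 may be named throughout. From the other ER genes up to 6 called genes of smallest p are named per comparison. Remaining members are given by role.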

Additional observations from a re-analysis of the deposited data

Results flagged for a closer look

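Of 136 groups of 4 to 6 libraries examined for the called members and the summed level, 9 held 1 library far from the others (Dixon's test), and chance alone gives about 1 in 20. Kdelr2 was low in Ikk2ca(D) replicate 4, at 89.47 CPM against 134.5 to 138 in the others. It was high in Ccnd1-Ikk2ca replicate 2, at 145.2 CPM against 73.19 to 82.13, and in MMSET-Ikk2ca replicate 4, at 150.7 CPM against 64.69 to 91.14. Sel1l was low in Ikk2ca(D) replicate 1, at 610.6 CPM against 1312 to 1432. Derl3 was high in Ccnd1-Ikk2ca replicate 2, at 425.3 CPM against 229 to 298.1. In Control(M), Lman1 was high in replicate 4, at 269.5 CPM against 180.1 to 189.8, and P4hb was low in replicate 3, at 417.3 CPM against 533.6 to 538.9. Syvn1 was high in MMSET-Ikk2ca replicate 4, at 313.8 CPM against 248.4 to 266.9. The summed members also stood highest in MMSET-Ikk2ca replicate 4, at 5.364% of non-immunoglobulin TPM. In the libraries that stood high in Ccnd1-Ikk2ca and MMSET-Ikk2ca, replicates 2 and 4, Hsp90b1 was also the highest of its group, at 2970 and 2643 CPM.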

How the results depend on the processing

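No value changed sign among the called results. Calls of P4hb in Ccnd1-Ikk2ca against Control(D), Derl1 in MMSET-Ikk2ca against Control(M) and Pdia4 in MMSET-Ikk2ca against MMSET passed in all 8 alternatives and all 18 fits with 1 library left out. For Ccnd1-Ikk2ca against Control(D), with 8 members called, DESeq2 called 13, no low-count filter 2, the Xist covariate 3, the replicate block 5 and replicates 1 to 4 only 3. For Ccnd1-Ikk2ca against Ccnd1, with 3, DESeq2 called 6, voom 8, no filter 1, the replicate block 1 and replicates 1 to 4 only 0. For MMSET-Ikk2ca against MMSET, with 6, no filter, the Xist covariate and the replicate block called 2 each and replicates 1 to 4 only 1, and against Control(M), with 6, replicates 1 to 4 only gave 3. Where 0 were called, DESeq2 called 3 in Ikk2ca(D), 5 in MMSET, 2 in Ikk2ca(M), 4 in MMSET-Ikk2ca against Ikk2ca(M) and 2 for the interaction in cohort M. Voom called 1, 1, 5 and 1 in the last 4 of these, the replicate block 1 in MMSET, and leaving out immunoglobulin genes 1 in MMSET-Ikk2ca against Ikk2ca(M). The cause was not tested. With each library left out, counts ran from 2 to 10 and 0 to 5 for Ccnd1-Ikk2ca against Control(D) and Ccnd1, 0 to 1 against Ikk2ca(D), 0 to 3 for MMSET, 1 to 7, 0 to 2 and 1 to 9 for MMSET-Ikk2ca against Control(M), Ikk2ca(M) and MMSET, 0 to 1 for the interaction in cohort M, and stayed at 0 for the other 6 comparisons. Same-numbered libraries did not deviate together (24 pairs in each cohort, median r 0.012 in D and 0.03 in M), so the numbers were not taken as pairs.

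The summed level relative to its control moved beyond its SD when taken as a share of all TPM: in Ccnd1-Ikk2ca and MMSET-Ikk2ca to 1.22 and 1.38 for all members, 1.09 and 1.43 for sensors, 1.18 and 1.24 for disulfide enzymes, 1.09 and 1.49 for ERAD, 1.47 and 1.46 for translocation, 1.40 and 1.51 for glycosylation, and 0.932 and 1.28 for ER-Golgi traffic. Translocation moved to 0.921 in MMSET and 1.19 in Ikk2ca(M). As a share of reads, all members came to 1.06 and ERAD to 1.04 in Ikk2ca(D), and ERAD to 1.03 in Ccnd1-Ikk2ca.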
